A study of Homo sapiens with 3 samples.

Results

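The genes described here were the human nuclear receptors other than the steroid, estrogen-related and HNF4 receptors, measured by RNA-seq in 22Rv1 WT cells. They were chosen by symbol from a list of 36 receptor genes, and each of the 36 had a row among the 27024 counted genes. The 22Rv1 line, an established line of human prostate carcinoma, was grown in RPMI1640 medium with fetal bovine serum. The 3 libraries were all of WT genotype, that is, cells without an edit at the prostate cancer risk locus that the study examined, and their labels give no treatment. The edited cells of the study were not analysed here, so no comparison between genotypes was made, and the question put to the data was which receptors these cells expressed, at what level, and how far the WT libraries differed. The study's methods speak of control clones and its results of biological replicates, so whether the spread over the 3 libraries is one between clones or between cultures cannot be told apart, and p-values measure only the spread between these samples.

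Nuclear receptors are transcription factors with a zinc-finger DNA-binding domain and, in most members, a pocket for a small lipophilic ligand. Many of them bind DNA as a heterodimer with a retinoid X receptor (RXR), and they recruit corepressors such as NCOR1 or coactivators such as NCOA1 according to the state of the ligand pocket. Receptors with no established natural ligand are called orphan receptors. In prostate epithelium the family is best known through the androgen receptor, and retinoic acid and vitamin D receptors are also known there for effects on growth and differentiation.

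The libraries held 38252744, 35675670 and 38629080 reads over the counted genes in replicates 1, 2 and 3. A level is given as the normalized count deposited for the library, and where genes are compared with each other it is divided by the length of 1 canonical transcript in kilobases. A gene was called expressed at 1 CPM (reads scaled to library sizes set by the TMM method) or more in all 3 libraries, which corresponded to 30.2, 30.2 and 30.4 normalized counts, and the floor of 3 reads, which covers counting error only, to 2.37, 2.54 and 2.36. The label of the cells was checked against markers, and 8 of 8 markers of prostate luminal cells were expressed, with a summed level between 62378 and 66314 normalized counts per library. The keratins KRT8 and KRT18 had the highest means of the 8, at 25161 and 16492 normalized counts. KLK2 was at 1241, and KLK3 was the lowest at 341. Of 8 measured markers of other cell types 2 were expressed, COL1A1 and CD68, with a summed level over the 8 markers between 314 and 374, and KRT5, TP63 and CDH5 were at 0 reads in each library.

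Of the 36 receptors, 25 were expressed, a share of 69.4%. The same criterion was met by 47.7% of all counted genes and by 63.8% of the protein-coding genes. The 11 receptors that were not expressed fell into a group of 4 with more than 3 reads in at least 1 library (NR4A3, NR1I2, RORA and NR2E1) and a group of 7 at or under the floor of 3 reads in every library (NR2E3, NR0B2, PPARG, NR1I3, RXRG, NR5A1 and NR0B1). At this depth the last 7 were not detectable above the floor, and 4 of them (NR1I3, RXRG, NR5A1 and NR0B1) had 0 reads in each library. The median level of the expressed receptors was 156 normalized counts per kb, against 332 over the 12181 expressed protein-coding genes with a length, and 6 receptors lay above that median.

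**Figure D1:**
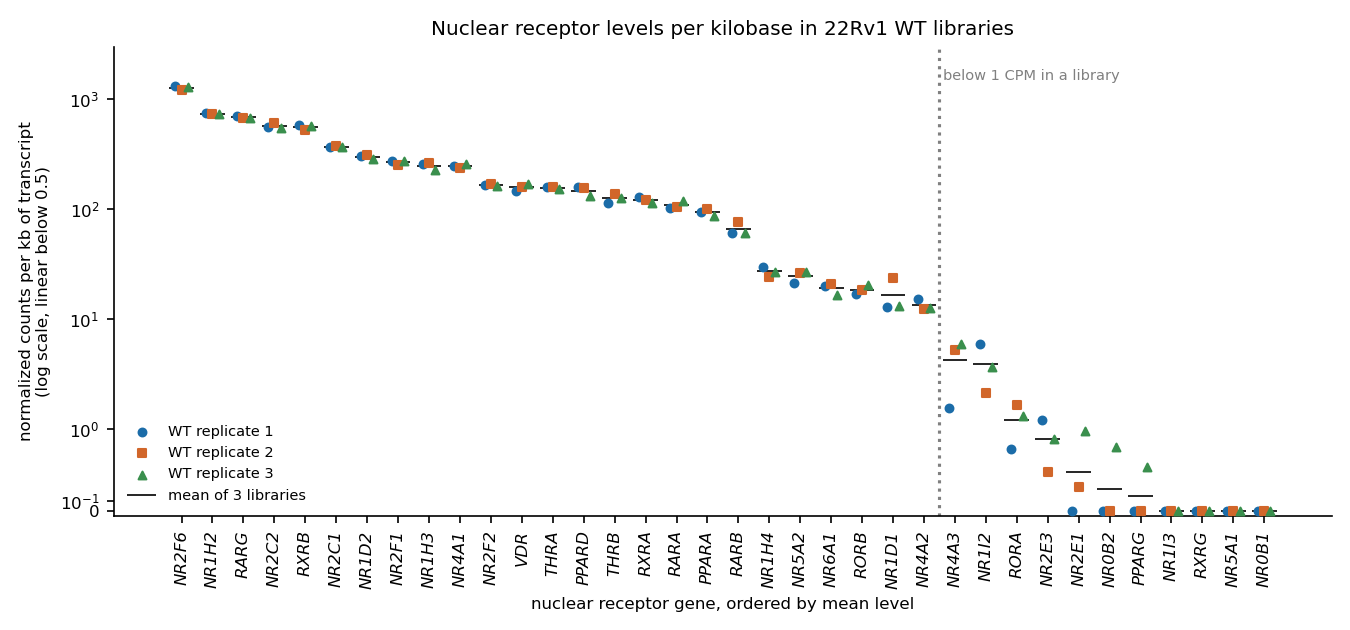
The plot gives the level of each receptor in normalized counts per kilobase of canonical transcript, on an axis that is logarithmic above 0.5 and linear below it, with 1 point per WT library and a line for the mean. The points of most expressed receptors lie close to their mean, from NR2F6 at 1274 down to NR4A2 at 13.5 normalized counts per kb, and the 11 receptors right of the dotted line were below 1 CPM in at least 1 library.

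The RXRs, the shared dimer partners that respond to 9-cis retinoic acid and related ligands, were represented by RXRB and RXRA. RXRB had 1700.2, 1517.3 and 1662.7 normalized counts in replicates 1, 2 and 3, with replicate 2 the lowest. This value stood in 6 neighbouring rows with the same reads, which were counted once. RXRA had 715.8, 679.5 and 632.2 normalized counts, below RXRB in every library. RXRG, which is known from muscle and brain, had 0 reads in each library. Per kilobase RXRB made up 82.2% ± 1.20 (SD, n = 3) of the summed RXR level and RXRA 17.8% ± 1.20. RXRB is at positions 33161365 to 33168442 of chromosome 6 in GRCh37, on the minus strand, and 361 bases of its exons, 9.26%, overlap exons of SLC39A7 on the other strand. SLC39A7 had 8337, 7685 and 8462 reads, and since the strand setting of the counting is not given in the sources used here, the part of these reads in the RXRB value was not tested.

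The retinoic acid receptors (RARs) bind all-trans retinoic acid and act as heterodimers with an RXR on direct repeats of a hexamer. RARG was the leading paralog with 2080.2, 1977.7 and 1994.1 normalized counts, a mean of 2017 ± 55.1 (SD, n = 3). RARA followed with 337.4, 341.0 and 393.6 normalized counts, and replicate 3 was the highest. RARB, whose gene is a known target of the receptors themselves, had 188.8, 239.5 and 191.3 normalized counts with replicate 2 above the other two. The 3 genes did not overlap over the libraries, and per kilobase RARG made up 79.8% ± 1.36 of the summed RAR level, RARA 12.6% ± 1.14 and RARB 7.62% ± 1.12 (SD, n = 3).

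The promoter windows of RARB and of CYP26A1, the enzyme that clears retinoic acid, are shown because they were the only ones among the receptors and the other listed genes that held a direct repeat of the hexamers that were searched. The letters were AGGTCA, which is the consensus of the family, then AGTTCA, which occurs in several retinoid response elements, then GGTTCA, its variant in RARB, and finally GGGTCA, another known variant. They were searched on both strands, with spacers of 1 to 5 bases, and the paired hexamers could be of any of these forms. Both windows span 250 bases before to 50 bases after a RefSeq start in GRCh38.p14, on the plus strand, and the capitals mark the paired hexamers. The RARB window, 1 of 4 for that gene, is chr3:25428013-25428312, and its repeat begins 53 bases before the start. The CYP26A1 window, 1 of 2, is chr10:93073643-93073942, and its repeat begins 90 bases before the start in reverse complement.
RARB: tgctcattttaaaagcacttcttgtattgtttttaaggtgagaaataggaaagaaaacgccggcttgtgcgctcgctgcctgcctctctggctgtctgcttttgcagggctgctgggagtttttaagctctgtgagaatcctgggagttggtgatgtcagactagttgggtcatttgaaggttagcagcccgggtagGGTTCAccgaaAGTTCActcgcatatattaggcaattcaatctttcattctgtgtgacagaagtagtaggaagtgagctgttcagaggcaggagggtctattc
CYP26A1: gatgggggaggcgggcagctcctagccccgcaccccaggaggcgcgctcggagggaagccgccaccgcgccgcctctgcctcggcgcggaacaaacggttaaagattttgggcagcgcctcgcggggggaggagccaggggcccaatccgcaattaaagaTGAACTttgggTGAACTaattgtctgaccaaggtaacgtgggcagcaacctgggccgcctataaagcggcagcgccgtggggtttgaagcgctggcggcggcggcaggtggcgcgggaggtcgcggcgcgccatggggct
The spacer is 5 bases in both, and a repeat with that spacer was found in 31 of 35116 RefSeq windows, or 0.0883%. A repeat with any of the 5 spacers was found in 0.410% of all windows, in 1 of 57 windows of the receptors and in 1 of 116 windows of the other listed genes. Single hexamers were common, in 38.6% of all windows and in 25 of the 57 receptor windows, or 43.9%, over the 32 receptors with a window. GGTTCA was searched as the variant in RARB, so the RARB match was built into the choice of hexamers. The shares of windows are therefore no test of that match. A match is a description of these letters and not evidence of binding.

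Of 17 genes of retinoid supply and clearance 8 were expressed. Per kilobase the highest were FABP5, a fatty acid carrier that also binds retinoic acid, at 4067 normalized counts per kb, and RDH11, a retinal reductase, at 2958 normalized counts per kb. DHRS3, which reduces retinal to retinol, had a level of 340 ± 9.54 normalized counts (SD, n = 3). CYP26A1 had 7, 0 and 12 reads, CYP26B1 9, 0 and 10 and CYP26C1 7, 0 and 3, so all of the retinoic acid hydroxylases were below 1 CPM in every library and at 0 reads in replicate 2. STRA6, the retinol uptake receptor, had 0 reads in each library.

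The thyroid hormone receptors bind triiodothyronine and, like the RARs, pair with an RXR. THRA had 823.2, 821.7 and 789.6 normalized counts and THRB 872.2, 1051.0 and 959.7, so THRB was above THRA in every library before length was taken into account. Per kilobase the order was the reverse, with 156 ± 3.65 normalized counts per kb for THRA and 127 ± 11.8 for THRB (SD, n = 3), and THRA made up 55.2% ± 2.40 of the summed level. Of 9 genes of thyroid hormone supply and response 3 were expressed, among them KLF9, a hormone-induced transcription factor, at 745 ± 18.0 normalized counts (SD, n = 3). DIO1, a deiodinase that activates the prohormone, had 6, 8 and 2 reads and was below 1 CPM in every library. DIO2, the other activating deiodinase, had 55, 34 and 44 reads and was below 1 CPM in replicate 2 alone.

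VDR, the receptor for the active form of vitamin D, had 683.4, 728.6 and 782.5 normalized counts, with replicate 3 the highest. Of 7 genes of vitamin D supply and response 3 were expressed. CYP2R1, which makes 25-hydroxyvitamin D, had 220 ± 19.5 normalized counts, and CYP27B1, which makes the active hormone, had 148 ± 18.4 (SD, n = 3). The response genes were low, with 0, 0 and 1 reads for CYP24A1, which degrades the hormone, and 0 reads in each library for the calcium channel gene TRPV6.

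The peroxisome proliferator-activated receptors (PPARs) are sensors of fatty acids. PPARD had 591.8, 578.8 and 489.7 normalized counts, with replicate 3 the lowest, and PPARA had 946.5, 1015.5 and 884.9. PPARG, the adipocyte receptor, had 0, 0 and 1 reads. Per kilobase PPARD made up 61.2% ± 1.56 of the summed PPAR level and PPARA 38.8% ± 1.48 (SD, n = 3), an order that was reversed without the division by length, where PPARA held 63.2% and PPARD 36.8%. Of 9 PPAR target genes 7 were expressed. They included ACADM and CPT1A, enzymes of fatty acid oxidation, at 4375 ± 49.1 and 3256 ± 69.6 normalized counts, and the secreted lipase inhibitor ANGPTL4 at 1213 ± 67.1 (SD, n = 3). FABP4, an adipocyte target of PPARG, had 0 reads in each library.

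The liver X receptors (LXRs) are sensors of oxysterols. NR1H2 (LXR beta) had 1832.9, 1777.1 and 1765.1 normalized counts, and NR1H3 (LXR alpha) had 480.4, 487.4 and 418.0, below NR1H2 in every library. Per kilobase NR1H2 made up 74.9% ± 1.40 of the summed level (SD, n = 3), and its 742 ± 15.0 normalized counts per kb were next to the highest of all receptors, although with all exons merged the level was 335 normalized counts per kb and 4 receptors were above it. Of 6 LXR target genes 4 were expressed, with SREBF1, the regulator of fatty acid synthesis, at 6988 ± 340 and SMPDL3A, a phosphodiesterase, at 3083 ± 39.8 normalized counts (SD, n = 3). The cholesterol exporter genes ABCA1 and ABCG1 were below 1 CPM, with 9, 22 and 9 reads and with 23, 24 and 19 reads.

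The receptors of bile acids and of foreign compounds were low or under the floor. NR1H4 (FXR), the bile acid receptor, was expressed at 82.2, 66.9 and 74.0 normalized counts, a mean of 74.4 ± 7.66 (SD, n = 3). None of the 4 FXR target genes, which are known from liver and gut, was expressed. NR1I2 (PXR), a receptor for many drugs, had 21, 7 and 13 reads and was below 1 CPM in every library. NR1I3 (CAR) had 0 reads in each library, although 663 bases of its exons, 20.4%, overlap exons of TOMM40L on the other strand, which had 2379, 2088 and 2288 reads. Of 6 PXR and CAR target genes 2 were expressed, while CYP3A4 had 0, 4 and 0 reads and CYP2B6 had 0 reads in each library.

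The summed level of the RXRs was set beside that of a chosen list of 14 genes for receptors that pair with an RXR. Of these 14 partners 11 were expressed. The list held only the thyroid hormone, retinoic acid and vitamin D receptors, the PPARs and LXRs, FXR, PXR and CAR. Per kilobase the RXRs came to 719, 649 and 691 normalized counts per kb and the partners to 2604, 2594 and 2519. The ratio was 0.276, 0.250 and 0.274 in replicates 1, 2 and 3, a mean of 0.267 ± 0.0144 (SD, n = 3). The summed RNA of the 14 partners thus exceeded that of the 3 RXRs in every library. The sums cover unlike numbers of genes, so their order does not compare a single RXR with a single partner. These are RNA levels, and protein was not measured.

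**Figure D2:**
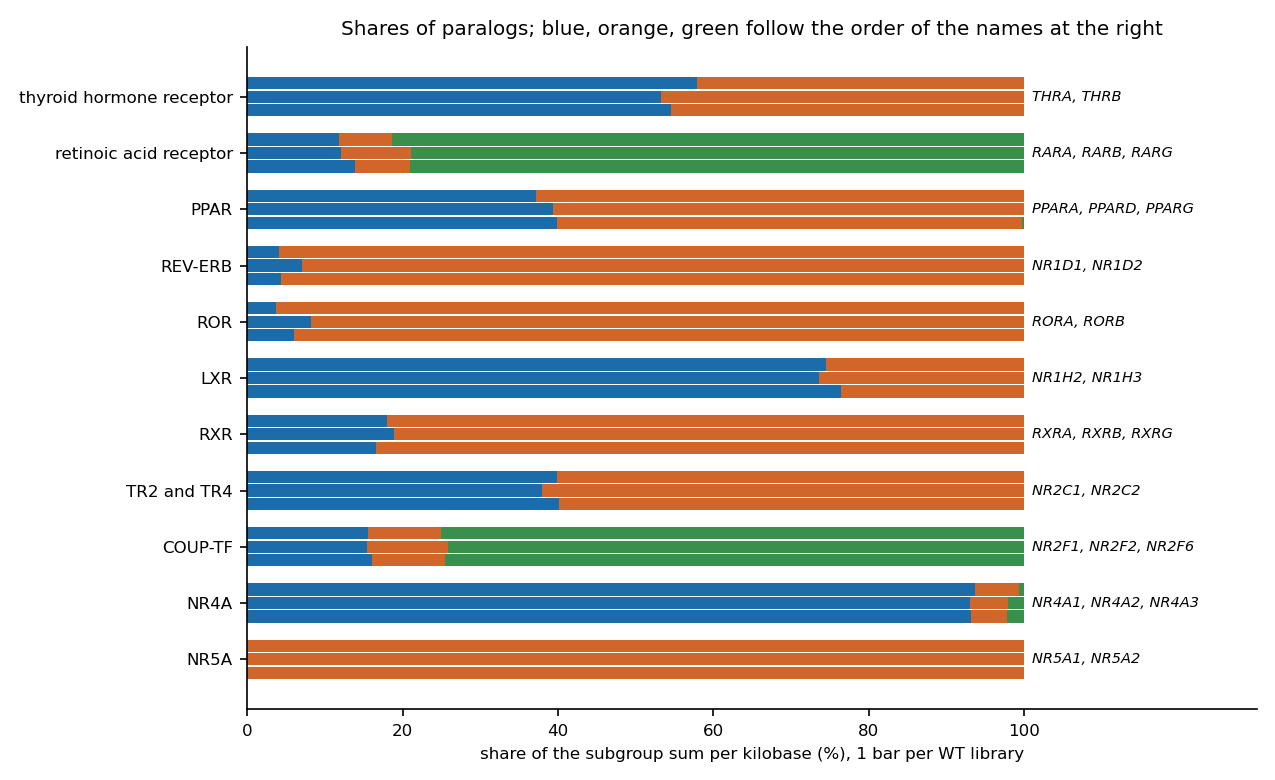
The plot gives, for the subgroups with at least 1 expressed paralog, the percent of the summed level per kilobase held by each paralog, with 1 stacked bar per WT library and the paralogs named in the order of the colours. The thyroid hormone receptors are nearest to even, at 55.2% for THRA and 44.8% for THRB.

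The REV-ERB receptors repress, and the RORs activate, genes with the same response element, among them BMAL1 of the circadian clock. NR1D2 (REV-ERB beta) had 1600.7, 1644.3 and 1495.0 normalized counts. NR1D1 (REV-ERB alpha) had 34.0, 62.6 and 34.6 normalized counts, with replicate 2 far above the others, and its coefficient of variation of 37.4% was the highest of the expressed receptors. Exons of NR1D1 and THRA, at positions 38249046 to 38256842 and 38214543 to 38250120 of chromosome 17 in GRCh37 on opposite strands, share 473 bases, which is 18.0% of the NR1D1 exons and 6.45% of those of THRA. The part of reads from the shared bases in the NR1D1 value was not tested. RORB had 162.8, 175.2 and 196.0 normalized counts, and RORA was below 1 CPM with 9, 21 and 18 reads. Of 14 clock genes 13 were expressed, with CLOCK, the activator, at 2183 ± 151 and the repressors PER1 and CRY1 at 1387 ± 89.5 and 1135 ± 64.1 normalized counts (SD, n = 3). BHLHE40, a repressor of the clock, was the exception with 0, 12 and 1 reads.

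The COUP transcription factors are orphan receptors that often repress transcription and can bind the elements of RXR heterodimers. NR2F6 (EAR2) had 3135.8, 2892.5 and 3079.0 normalized counts, and its level of 1274 ± 53.4 normalized counts per kb (SD, n = 3) was the highest of the 36 receptors. Its gene is at positions 17342692 to 17356728 of chromosome 19 in GRCh37, on the minus strand. NR2F1 (COUP-TFI) had 1047.6, 967.3 and 1066.7 normalized counts and NR2F2 (COUP-TFII) 875.4, 900.4 and 866.8, so both were below NR2F6 in every library. Per kilobase NR2F6 made up 74.6% ± 0.411 of the summed level, NR2F1 15.6% ± 0.325 and NR2F2 9.77% ± 0.556 (SD, n = 3).

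The testicular receptors NR2C1 (TR2) and NR2C2 (TR4) are orphan receptors that bind direct repeats as dimers with each other. NR2C2 had the most reads of any receptor, 5944, 6071 and 5849, and NR2C1 had 1897, 1788 and 1887. Per kilobase NR2C2 held 60.7% ± 1.18 of the summed level (SD, n = 3). NR2C2, at positions 14989090 to 15095107 of chromosome 3 in GRCh37 on the plus strand, overlaps exons of MRPS25 on the other strand over 7157 bases, or 60.5% of its exons. MRPS25, a subunit of the mitochondrial ribosome, had 6346, 6593 and 6481 reads. Without the bases shared with exons of another gene 1381 of the 8419 bases of the NR2C2 transcript remain. Dividing the same reads by that length gave 3485 ± 206 normalized counts per kb (SD, n = 3) in place of 572 ± 33.8, and NR2C2 was then the highest receptor and held 90.4% of the summed level. Which reads fell in the shared bases was not measured, so the place of NR2C2 in the order is uncertain. With all exons merged 8 expressed receptors were lower by more than 1.5 times, namely NR1H2, RARG, NR2C1, NR1H3, NR4A1, RXRA, RARB and NR5A2, as with RARB at 21.9 in place of 65.9 normalized counts per kb.

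**Figure D3:**
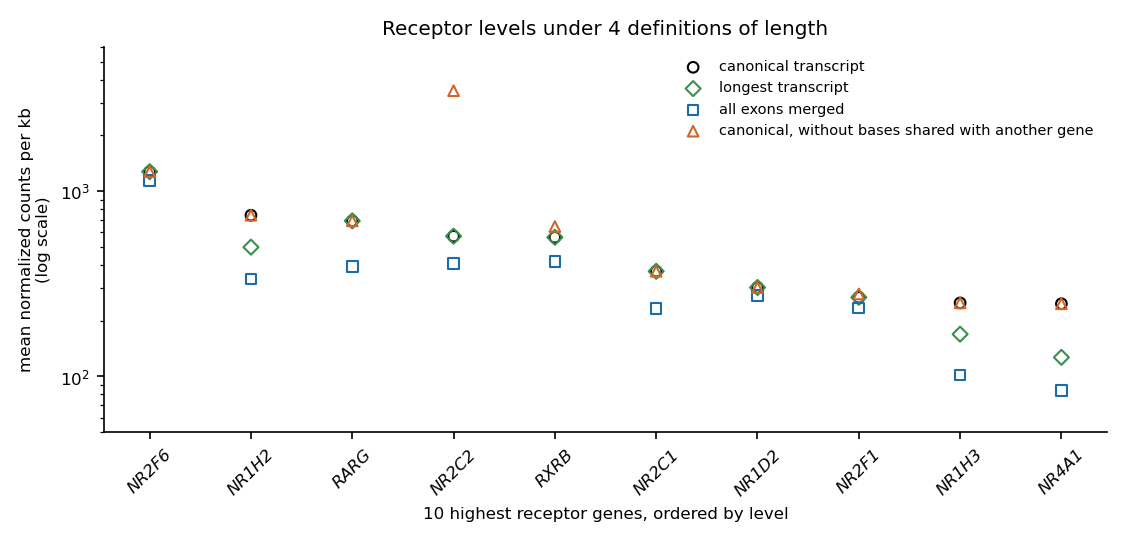
The plot gives the mean level of the 10 highest receptors in normalized counts per kilobase on a log axis, under 4 definitions of length. NR2C2 moves furthest, from 407 normalized counts per kb with all exons merged to 3485 without the bases shared with another gene, and the longest and canonical transcripts gave 572.

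The remaining orphan receptors were led by NR4A1. The NR4A receptors are immediate early genes that serum and stress induce, and NR4A1 had 618.6, 585.6 and 636.1 normalized counts. NR4A2 was expressed at 52.9, 43.2 and 44.1 normalized counts. NR4A3 had 11, 35 and 42 reads, below 1 CPM in replicates 1 and 2, and its highest CPM was 3.79 times its lowest. Per kilobase NR4A1 made up 93.3% ± 0.346 of the summed NR4A level (SD, n = 3). NR5A2 (LRH-1), known from liver and gut, had 105.9, 130.3 and 134.6 normalized counts, while NR5A1 (SF-1), the regulator of steroid hormone synthesis, had 0 reads in each library. NR6A1 (GCNF), a germ cell factor, had 142.2, 146.4 and 116.5 normalized counts. NR2E1 (TLX), a factor of neural stem cells, had 0, 1 and 4 reads, and NR2E3, a factor of photoreceptors, had 3, 1 and 2. NR0B1 (DAX1) and NR0B2 (SHP), which lack the DNA-binding domain and repress other receptors, had 0 reads in each library and 0, 0 and 1 reads.

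Ordered by mean level per kilobase, the expressed receptors ran from NR2F6 through NR1H2, RARG, NR2C2 and RXRB down to RORB, NR1D1 and NR4A2. The first 5 held 58.6% ± 0.784 (SD, n = 3) of the summed level of all 36, which was between 6497 and 6649 normalized counts per kb in a library. Of the 24 pairs of neighbours in this order 11 did not overlap over the libraries and 13 did. NR2F6, NR1H2, RARG and NR2C2 were separate from each other, as were RXRB, NR2C1, NR1D2 and NR2F1, and RARA, PPARA, RARB and NR1H4. This order holds for the canonical length alone. NR2F6 was followed by RXRB, NR2C2, RARG and NR1H2 with all exons merged and by RARG, NR2C2, RXRB and NR1H2 with the longest transcript. The run from NR2F2 through VDR, THRA, PPARD, THRB and RXRA to RARA overlapped at every step. The order of neighbours in it was therefore not settled by these libraries. Genes further apart in the run could be separate. The lowest library of NR2F2, at 164 normalized counts per kb, was above the highest of RARA, at 120. Neighbours also overlapped from NR6A1 through RORB and NR1D1 to NR4A2, although NR6A1 and RORB were each separate from NR4A2.

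The coregulators that the receptors recruit were expressed nearly throughout. All 11 corepressor genes were expressed, with NCOR1 at 7444 ± 449 normalized counts (SD, n = 3). Per kilobase HDAC3, the deacetylase of the NCOR complex, was the highest corepressor at 1257 normalized counts per kb. Of 13 coactivator genes 12 were expressed, and per kilobase the highest was the arginine methyltransferase PRMT1 at 9028 normalized counts per kb. The exception was PPARGC1A (PGC-1 alpha), a coactivator of mitochondrial gene expression, with 10 reads in each library. Over the 10 lists of genes around the receptors, 63 of 96 genes were expressed, where 63.8% of all protein-coding genes met the same criterion.

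The spread of most receptors between the WT libraries was small next to the differences between receptors. The coefficient of variation of the expressed receptors ran from 0.918% for NR2C1 to 37.4% for NR1D1, with a median of 6.78% against 4.88% over all expressed genes, and apart from NR1D1 the highest was 13.8%. For 21 of the 25 the highest CPM was less than 1.25 times the lowest. A chi-square test of homogeneity, which takes counting error as the only source of spread, was made for the 28 receptors with a mean of at least 10 reads. It called 12 of them at a Benjamini-Hochberg adjusted p under 0.05, or 42.9%, against 41.9% of the 14646 genes tested, so the receptors' share was near that of all genes. The smallest adjusted p was that of NR2C2, 1.15e-08, followed by THRB at 2.74e-04 and NR4A3 at 6.57e-04. With the trended dispersion of edgeR added, 0 receptors were called against 0.416% of all genes, and 1 of the 28 receptors, NR4A3, was at an unadjusted p under 0.05, against 802 of all genes or 5.48%. With the chi-square divided by its scale over low genes, 1 receptor was called, NR2C2, at an adjusted p of 0.0427, against 3.84% of all genes. Exons of other genes cover 83.6% of the canonical NR2C2 transcript, and the part of their reads in its spread was not tested. Without replicate 2 the first test called 4 receptors and 3332 of all genes, without replicate 3 it called 7 and 3447, and without replicate 1 it called 9 and 3950.

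**Figure D4:**
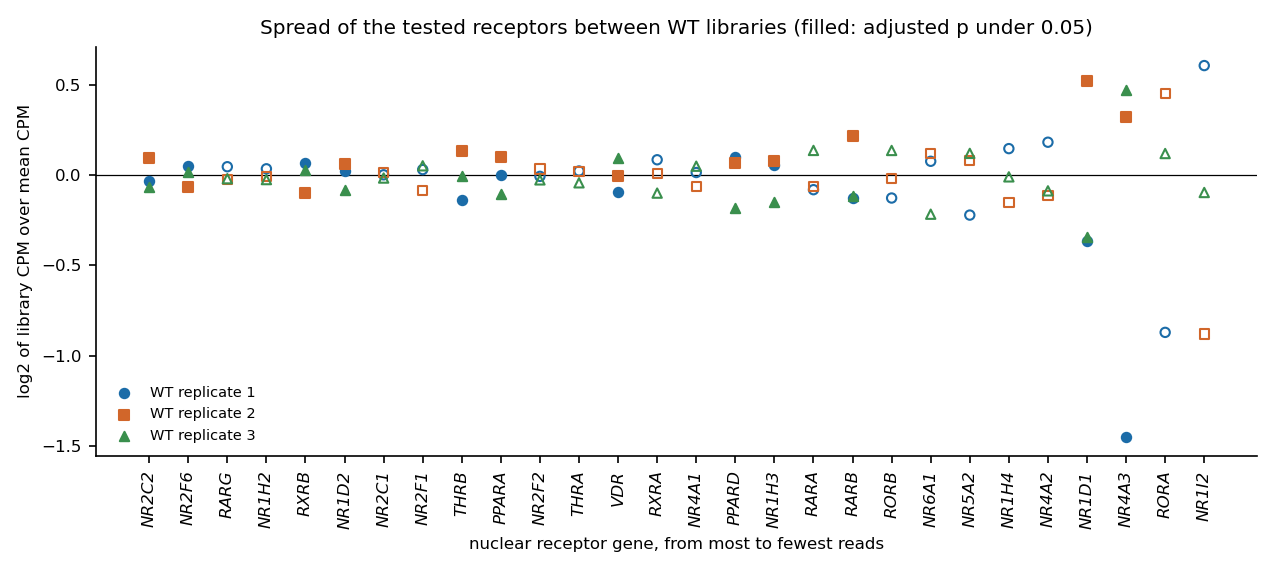
The plot gives the log2 ratio of each library's CPM to the mean CPM for the 28 tested receptors, ordered from most to fewest reads, with 1 point per WT library and filled points for the 12 receptors called by the chi-square test. The points spread more widely toward the receptors with few reads at the right, where NR4A3 has its lowest point in replicate 1.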

How the data were processed

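The values that the authors deposited for each of the 3 libraries are a signal per gene, namely HTSeq read counts divided by 1 DESeq2 size factor per library (1.27, 1.18 and 1.27) and rounded to 1 decimal. Per the labels and the study's methods, paired-end reads were aligned to GRCh37 with HISAT2 and counted on a GENCODE annotation. The release and the strand setting are not given in the sources used here. Whole reads were recovered from 100% of the deposited values within rounding.

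The files hold 29000 rows. Neighbouring rows with the same reads in all libraries were merged, which removed 1976 rows. Lengths and positions came from GENCODE 44 lifted to GRCh37. No receptor had a near-identical copy elsewhere under another symbol (minimap2 2.31, at least 50% of the length at 98% identity). CPM used TMM sizes (edgeR 4.0.16, R 4.3.3), with DESeq2 1.42.0 size factors as an alternative. The chi-square test was checked on simulated counts with sampling noise only, where it called 184 of 200 genes changed by 2-fold among 14649 genes, and 8 others. These counts lacked the spread beyond counting error that the real libraries had. The check therefore does not tell how many calls in the real libraries reflect only such spread. P-values were adjusted by Benjamini-Hochberg over all genes tested. The common biological coefficient of variation was 5.58%.

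The members and lists were chosen with earlier results of these data known. All members were named. From each other list the genes named were taken from up to 5 with the highest level per kilobase, those below 1 CPM, any called with the dispersion added, and genes overlapping a member. Not every gene under this rule is reported here. Promoter windows were those of RefSeq.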

Additional observations from a re-analysis of the deposited data

How the results depend on the processing

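With 3 libraries of 1 group, only the spread between libraries could be tested. No paired analysis was possible because only 1 group was analysed. The count of receptors that differed between libraries, 12 by the chi-square test, was 0 with the edgeR dispersion added and 1 with the scaled chi-square, and leaving out each library gave 4 to 9. Over all genes the count of 6141 became 61 and 562 under the same tests and 3332 to 3950 without a library. Other scalings and minimum counts gave 11 or 12 receptors. The ratio of RXR to partner levels, 0.267, was 0.321 with merged exon lengths and 0.297 without bases shared with another gene, a length chosen after seeing the data. The number of expressed receptors was 25 in every alternative except a minimum of 10 reads in each library, where it was 26. The leading paralog was the same in 11 of 11 subgroups under every alternative except the one without length, where it was the same in 9. No alternative removed reads that may come from bases shared with another gene, as in NR2C2. NR5A1 had 0 reads in each library, so NR5A2 led its subgroup under any of them. Levels per kilobase moved by more than 1 SD in 29 of 108 values under other lengths. The 108 include receptors that were not expressed and lengths equal to the canonical one. Most of the 29 came with merged exon lengths, under which most expressed receptors moved.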
